A study of Mus musculus with 12 samples.

Results

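The 10 genes described here govern the first gate of the cell cycle, and their rows were taken from the deposited count files by gene symbol. They are the D-type cyclins Ccnd1, Ccnd2 and Ccnd3, their partner kinases Cdk4 and Cdk6, the Cip/Kip inhibitors Cdkn1a, Cdkn1b and Cdkn1c, and the INK4 inhibitors Cdkn2b and Cdkn2c. All 10 symbols were found, once each, among 24147 gene entries, and all 10 passed the filter on low counts that left 14560 genes for testing. RNA was sequenced from lens capsules with the lens epithelial cells still attached, taken from adult mice 2 months old in a mouse model of cataract surgery in which the fiber cell mass is removed from the lens of a living animal. The series asks how fibronectin takes part in the clouding of the posterior capsule that can come after such surgery. The groups were FNcKO at 48 h after fiber cell removal, FNcKO at 0 h (directly after it), WT at 48 h and WT at 0 h, with 3 libraries each. In FNcKO mice the fibronectin gene Fn1 is conditionally deleted, and their strain background mixes C57BL/6, 129 and FVB/N, whereas WT mice are wild type C57BL/6, so genotype and strain background cannot be told apart. The sources used here do not give the Cre line, the deleted exons or how many lenses or animals went into a library, and the design text calls the replicates biological triplicates.

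D-type cyclins bind CDK4 or CDK6, and the active kinases phosphorylate the retinoblastoma protein, which frees E2F factors to switch on genes of DNA replication. INK4 proteins bind CDK4 and CDK6 directly and block their pairing with D cyclins. Cip/Kip proteins inhibit cyclin E and cyclin A complexes with CDK2 and can also help D cyclins assemble with their kinases. In the lens, dividing cells lie in the epithelium, and cells that become fibers leave the cycle, a step in which Cdkn1b and Cdkn1c are known to act in mice.

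Library totals ran from 8368160 to 10862573 counts. Levels are CPM scaled by the trimmed mean of M values (TMM). Levels of different genes are compared only as TMM-scaled RPKM, the CPM per kb of the coding length that the files give. A gene was called when its adjusted p was under 0.05 in edgeR's quasi-likelihood test with Benjamini-Hochberg (BH) adjustment over the 14560 genes. Fn1, the targeted gene, had 146, 297 and 687 CPM in FNcKO 48 h and 16.8, 9.80 and 8.31 CPM in FNcKO 0 h libraries, against 1513, 527 and 978 CPM in WT 48 h and 18.9, 23.0 and 15.5 CPM in WT 0 h libraries. Counts are per gene and the deleted exons are not given, so these values check no genotype label. Why Fn1 reads remained in FNcKO libraries was not tested. All 8 lens epithelial markers were detected in every group, with summed levels of 980.3 to 1653 CPM in FNcKO 48 h, 3013 to 3271 CPM in FNcKO 0 h, 1457 to 1525 CPM in WT 48 h and 2294 to 3269 CPM in WT 0 h libraries. A combined table of the authors holds, in the column named for WT 0 h replicate 1, the counts of the FNcKO 0 h replicate 1 file in all 24147 entries, and each library's own file was used here. Without both 0 h replicate 1 libraries, Ccnd2 was not called in FNcKO (edgeR, BH-adjusted p = 0.206) or WT (0.128), nor Cdk4 in FNcKO (0.146), and the other 8 calls over time described below held. In bulk RNA, fewer cells of a type and less RNA per cell cannot be told apart.

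At 48 h against 0 h, the CDK inhibitors moved in opposite directions. Cdkn1a and Cdkn2b rose and Cdkn1c fell in both genotypes, and Cdk4 rose in both. Ccnd2 fell, while Ccnd1 and Ccnd3 did not pass the test. Of the 10 genes, 6 were called in FNcKO, where 24.8% of all tested genes were called, and 5 were called in WT, where the share was 32.6%. In each genotype 3 rose, which were Cdk4, Cdkn1a and Cdkn2b, against 14.9% of all tested genes in FNcKO and 19.1% in WT. The genes that fell were Ccnd2, Cdkn1b and Cdkn1c in FNcKO, where 9.9% of tested genes fell, and Ccnd2 and Cdkn1c in WT, where 13.5% fell. The median log2 fold change of the 10 genes was 0.25 in FNcKO and 0.19 in WT, beside 0.00 and 0.02 for all tested genes. Between FNcKO and WT none of the 10 was called by edgeR or DESeq2 at 48 h, where edgeR called 0.24% of tested genes, or at 0 h, where it called 0.144%.

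**Figure D1:**
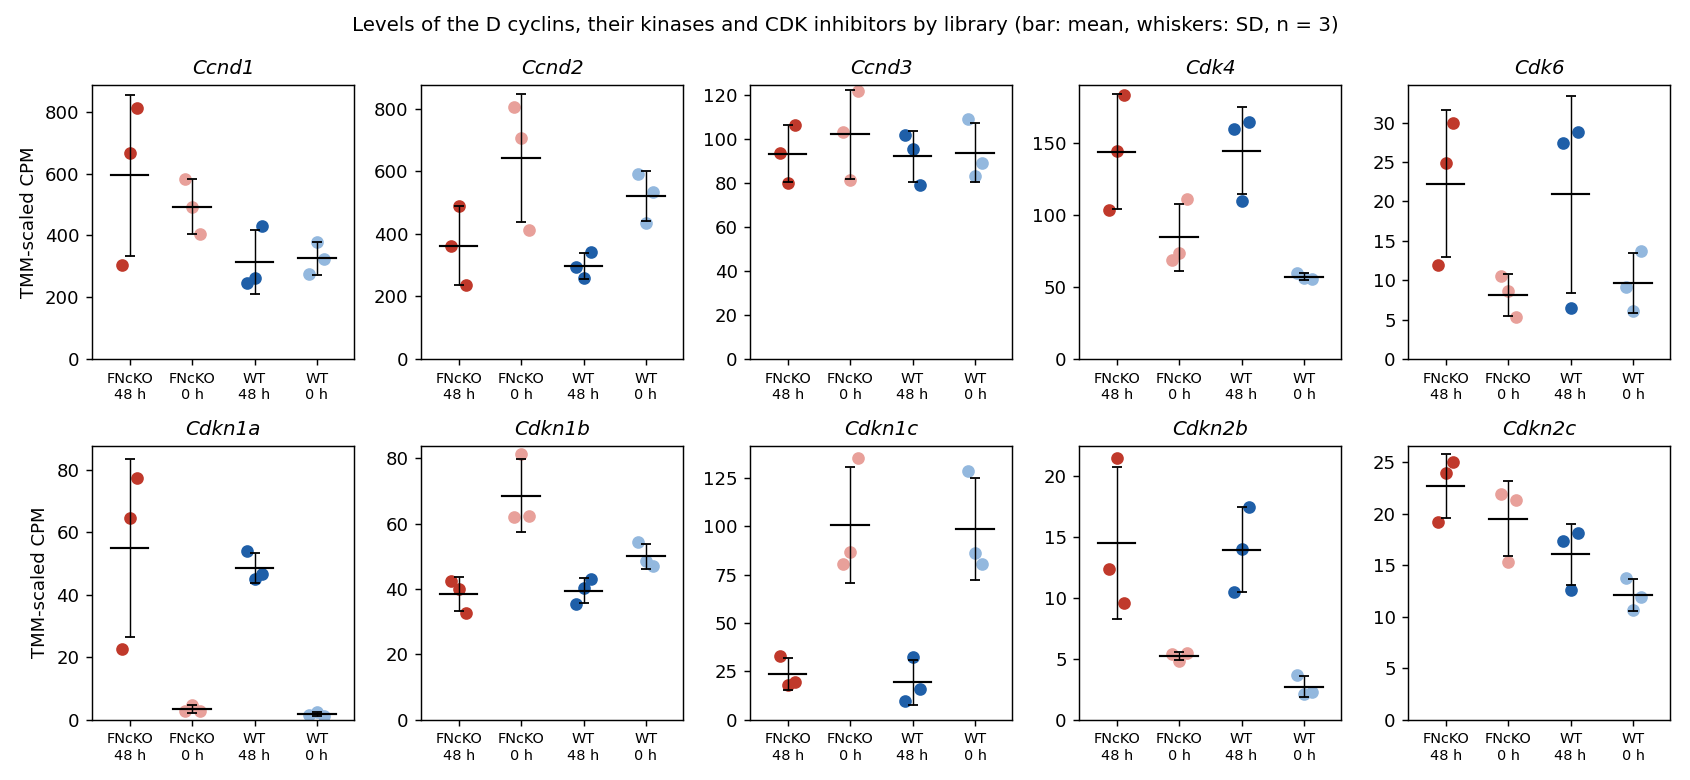
TMM-scaled CPM of the 10 genes (vertical axes, each starting at 0) in FNcKO 48 h, FNcKO 0 h, WT 48 h and WT 0 h libraries, with points for libraries, bars for means and whiskers for SD (n = 3). Cdkn1a, Cdkn2b and Cdkn1c show the clearest separation of 48 h from 0 h in both genotypes, and Ccnd3 shows none.

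Ccnd1 and Ccnd2 were among the 3 highest of the 10 genes in TMM-scaled RPKM in every group. Ccnd1, on chromosome 7 from 144929931 to 144939925 (mm10), encodes cyclin D1, a cyclin that growth factor signals raise in many epithelia. It had 306, 667 and 811 CPM in the FNcKO 48 h libraries (replicates 1 to 3), against 581, 492 and 403 CPM in FNcKO at 0 h. The corresponding levels in WT were 246, 263 and 432 CPM at 48 h, against 274, 379 and 324 CPM at 0 h. The times overlapped in both genotypes, and FNcKO 48 h replicate 1 lay below every FNcKO 0 h library while replicates 2 and 3 lay above all of them. The log2 fold change was 0.27 in FNcKO (SE 0.32, edgeR BH-adjusted p = 0.582) and −0.06 in WT (SE 0.32, edgeR BH-adjusted p = 0.911). With total counts as the scale the WT value was 0.14, so its sign depends on the scaling.

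Ccnd2, on chromosome 6 from 127125709 to 127151048, encodes cyclin D2. It stood at 360.0, 489.8 and 236 CPM in FNcKO 48 h libraries, against 805, 706 and 412 CPM in FNcKO 0 h libraries. In WT it stood at 294, 259 and 342 CPM at 48 h, against 592, 436 and 535 CPM at 0 h. Every WT 48 h library lay below every WT 0 h library, and in FNcKO the times overlapped through 48 h replicate 2 and 0 h replicate 3. Ccnd2 fell by 0.82 on the log2 scale in FNcKO (SE 0.29, edgeR BH-adjusted p = 0.0495) and by 0.80 in WT (SE 0.29, edgeR BH-adjusted p = 0.0449), that is 1.77-fold and 1.75-fold. Both calls sat at the threshold and held in 5 of 20 alternatives in FNcKO and 9 of 20 in WT. With total counts as the scale neither was called, with adjusted p of 0.155 in FNcKO and 0.147 in WT (edgeR, BH). The FNcKO call held, among 12 fits that each left out 1 library, only when FNcKO 0 h replicate 3 or FNcKO 48 h replicate 2 was the one left out, and the adjusted p ran from 0.05003 to 0.188 in the other fits (edgeR). The WT call was lost without WT 0 h replicate 1 (edgeR, BH-adjusted p = 0.127) or 3 (0.102), without WT 48 h replicate 1 (0.108), 2 (0.126) or 3 (0.064), and likewise without FNcKO 0 h replicate 2 (0.0552) or FNcKO 48 h replicate 1 (0.0535).

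Ccnd3, on chromosome 17 from 47505051 to 47599688, encodes cyclin D3, best known in blood cell lineages. Its libraries ran from 80.2 to 106 CPM in FNcKO 48 h, 81.3 to 122 CPM in FNcKO 0 h, 79.3 to 102 CPM in WT 48 h and 83.5 to 109 CPM in WT 0 h. These 4 ranges overlapped throughout. The log2 fold change over time was −0.13 in FNcKO (SE 0.18, edgeR BH-adjusted p = 0.659) and −0.03 in WT (SE 0.18, edgeR BH-adjusted p = 0.928), and with total counts as the scale it was 0.18 and 0.20. Exons of Ccnd3 share 361 bases with Bysl on the other strand, and exons of Ccnd1 share 1100 bases with LTO1 (GENCODE M21 annotation). The sources used here do not say whether the counting used the strand, so reads of such neighbours cannot be told apart from those of the cyclins. The same holds for Ccnd2, whose exons share 368 and 372 bases with a pair of antisense genes, and for Cdk6, which shares 368 bases with another.

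In TMM-scaled RPKM, the summed level of the 3 cyclins was 261 ± 66.1 in FNcKO 48 h (SD, n = 3), 286 ± 53.5 in FNcKO 0 h, 175 ± 28.7 in WT 48 h and 218 ± 5.35 in WT 0 h. Ccnd1 made up 43.6%, 59.3% and 70.8% of that sum in FNcKO 48 h libraries, against 45.3%, 45.0% and 45.9% in FNcKO 0 h libraries. In WT its share was 40.2%, 44.2% and 54.7% at 48 h, against 32.4%, 47.0% and 39.2% at 0 h. The Ccnd1 share thus spread widely at 48 h in FNcKO and hardly at 0 h. Ccnd2 held 25.3% ± 10.5 in FNcKO 48 h, 38.2% ± 6.38 in FNcKO 0 h, 29.6% ± 1.82 in WT 48 h and 41.4% ± 5.30 in WT 0 h. In WT the Ccnd2 shares of the times did not overlap, with 28.5% to 31.7% at 48 h and 35.6% to 46.0% at 0 h.

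**Figure D2:**
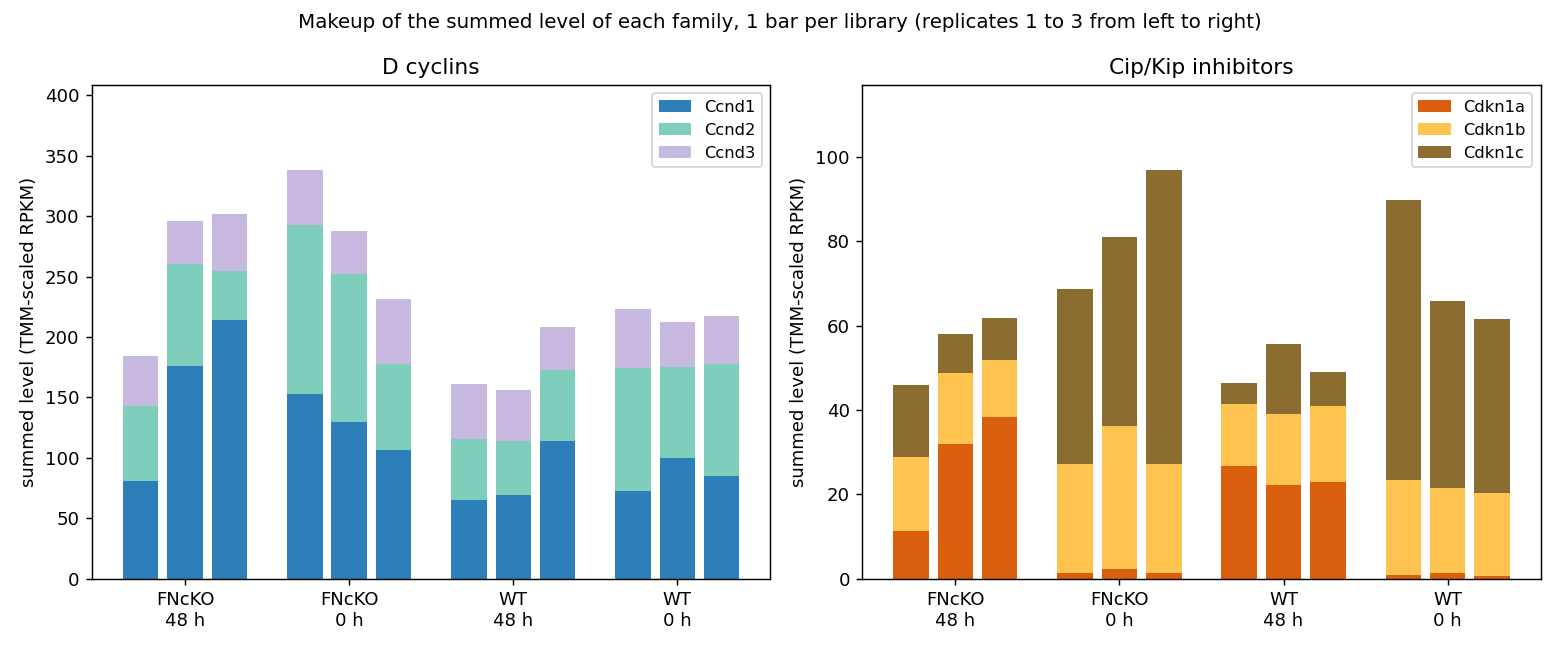
Summed level of the D cyclins (left) and of the Cip/Kip inhibitors (right), in TMM-scaled RPKM, split by gene, with 1 bar per library and replicates 1 to 3 from left to right in each group. The Cip/Kip bars hold mostly Cdkn1c at 0 h and a large Cdkn1a part at 48 h, and the cyclin bars hold all 3 genes at both times.

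The kinase Cdk4, on chromosome 10 from 127063603 to 127067282, is the main partner of D cyclins in many tissues. It reached 104, 145 and 184 CPM in FNcKO 48 h libraries, against 69.0, 73.6 and 111 CPM in FNcKO 0 h libraries. In WT it reached 160.3, 109.9 and 165 CPM at 48 h, against 59.9, 56.3 and 56.0 CPM at 0 h. The WT times were fully apart, and the FNcKO times overlapped because 0 h replicate 3 exceeded 48 h replicate 1. Cdk4 rose 1.70-fold in FNcKO (log2 value 0.77, SE 0.24, edgeR BH-adjusted p = 0.0298), and in WT 2.53-fold (log2 value 1.34, SE 0.24, edgeR BH-adjusted p = 0.00113). The WT call held in all 20 alternatives. In FNcKO it was lost without 0 h replicate 1 (edgeR, BH-adjusted p = 0.117) or 2 (0.0985), without 48 h replicate 2 (0.069) or 3 (0.148), without both 0 h replicate 1 libraries (0.146), when FNcKO libraries alone were fitted (0.0654) and with fiber cell content as a covariate (log2 0.42, 0.598).

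The 250 bases before the RefSeq start of Cdk4 (GRCm38.p6, chr10:127063285-127063534, plus strand) are shown because they carry a repeated motif, with CACGTG and GGGCGG matches on either strand in capitals.
Cdk4 upstream: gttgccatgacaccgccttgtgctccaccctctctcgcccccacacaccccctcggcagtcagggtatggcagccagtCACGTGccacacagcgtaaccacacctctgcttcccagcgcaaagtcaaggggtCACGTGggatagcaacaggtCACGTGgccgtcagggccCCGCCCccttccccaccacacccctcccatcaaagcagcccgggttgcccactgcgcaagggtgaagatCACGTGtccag
The E-box CACGTG, a sequence that MYC and USF family factors can bind, begins 172, 118, 98 and 11 bases before the start, and the GC box GGGCGG begins 80 bases before it. At least 4 CACGTG were found in 7 of 32851 such windows of RefSeq genes (0.021%), and at least 1 in 6.02%. The cutoff of 4 equals the count in the Cdk4 window, which is among the 7, so this share is a description only. RefSeq windows were at hand for 7 of the 10 genes, not including Ccnd1, Ccnd2 and Cdkn1c. Among these, CACGTG was found for Cdk4 and Cdk6, GGGCGG for 5 genes (32.7% of all windows hold it) and the AP-1 sequence TGANTCA for 0 (6.75% of all windows), and no motif overlapped another. The 7 genes have 10 windows, so these counts of genes and shares of windows are not like measures. Such matches describe letters and show no binding. Exons of Cdk4 share 641 bases with Tspan31 on the other strand.

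Cdk6, on chromosome 5 from 3344312 to 3522225, encodes the second kinase of D cyclins. Its levels were 11.9, 24.9 and 30.0 CPM in FNcKO 48 h libraries, against 10.5, 8.65 and 5.30 CPM in FNcKO 0 h libraries. In WT they were 27.4, 6.51 and 28.8 CPM at 48 h, against 9.12, 6.12 and 13.7 CPM at 0 h. FNcKO libraries of the times did not overlap, and in WT the 48 h replicate 2 sat inside the 0 h range while the other 48 h libraries lay above it. The log2 fold change was 1.44 in FNcKO (SE 0.53, edgeR BH-adjusted p = 0.0664) and 1.12 in WT (SE 0.52, edgeR BH-adjusted p = 0.121). The outcome depended on single libraries and, in FNcKO, on the scaling and the model. Without WT 48 h replicate 2 the adjusted p was 0.0149 in FNcKO and 0.0129 in WT (edgeR), and without FNcKO 48 h replicate 1 it was 0.0317 in FNcKO. With all 12 libraries, Cdk6 was called in FNcKO by DESeq2 (BH-adjusted p = 0.0253) and with total counts as the scale (log2 1.71, edgeR, BH-adjusted p = 0.0347). It was also called when FNcKO libraries alone were fitted (log2 1.43, edgeR, BH-adjusted p = 0.0267).

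Cdk4 supplied most of the kinase RNA in TMM-scaled RPKM, with 92.5% ± 1.44 in FNcKO 48 h (SD, n = 3), 94.6% ± 2.62 in FNcKO 0 h, 93.2% ± 3.164 in WT 48 h and 91.7% ± 3.15 in WT 0 h. The summed D cyclins exceeded the summed kinases in all 12 libraries. Their ratio was 2.25, 2.52 and 2.03 in FNcKO 48 h libraries, against 6.09, 4.95 and 2.73 in FNcKO 0 h libraries. In WT the ratio was 1.24, 1.86 and 1.55 at 48 h, against 4.63, 4.796 and 4.61 at 0 h. The ratio was thus lower in every 48 h library than in any 0 h library of the same genotype.

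Of the 10 genes, Cdkn1a had the largest fold change over time in both genotypes. It lies on chromosome 17 from 29090986 to 29100722 and encodes p21, a CDK inhibitor that p53 and TGF-beta signals are known to raise. It measured 22.8, 64.7 and 77.5 CPM in FNcKO 48 h libraries, against 2.68, 4.84 and 2.87 CPM in FNcKO 0 h libraries. In WT it measured 54.0, 45.1 and 46.5 CPM at 48 h, against 1.503, 2.55 and 1.32 CPM at 0 h. The lowest 48 h library, FNcKO replicate 1, was still far above the highest 0 h library. Cdkn1a rose 15.8-fold in FNcKO (log2 value 3.98, SE 0.43, edgeR BH-adjusted p = 8.12e-05), and in WT 26.7-fold (log2 value 4.74, SE 0.46, edgeR BH-adjusted p = 2.67e-05). Both calls held in all 20 alternatives, with a smallest log2 value of 3.04 in FNcKO and 3.999 in WT, each with fiber cell content as a covariate. By level in TMM-scaled RPKM, Cdkn1a was above 84.5% of all tested genes in FNcKO 48 h and 23.0% in FNcKO 0 h, and above 82.4% in WT 48 h and 13.04% in WT 0 h.

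RefSeq lists a pair of starts for Cdkn1a (GRCm38.p6, plus strand), and the 250 bases before each are shown because they differ in motif content. Capitals mark p53 decamers in chr17:29090729-29090978 and GGGCGG in chr17:29093519-29093768.
Cdkn1a first start: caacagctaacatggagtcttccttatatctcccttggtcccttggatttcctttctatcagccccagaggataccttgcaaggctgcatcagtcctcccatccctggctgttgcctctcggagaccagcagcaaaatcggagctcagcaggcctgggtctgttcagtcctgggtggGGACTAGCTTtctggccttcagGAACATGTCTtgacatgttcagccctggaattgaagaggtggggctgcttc
Cdkn1a second start: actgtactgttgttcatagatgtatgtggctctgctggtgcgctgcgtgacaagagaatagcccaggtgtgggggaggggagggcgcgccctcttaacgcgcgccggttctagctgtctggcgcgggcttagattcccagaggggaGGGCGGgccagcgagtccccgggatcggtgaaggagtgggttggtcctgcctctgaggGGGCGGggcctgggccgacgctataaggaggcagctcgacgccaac
The first window holds 2 matches to the p53 decamer, beginning 73 and 51 bases before the start, a motif that 7.13% of all windows hold. It was the only one of the 7 genes with a match, and this motif was added after the sequence had been seen. The second window holds GGGCGG beginning 104 and 46 bases before its start. Counts per gene do not tell which start was used. Exons of Cdkn1a share 273 bases with an annotated gene on the other strand, whose reads cannot be told apart from its own.

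Of the other Cip/Kip genes, Cdkn1c fell in both genotypes and Cdkn1b fell in FNcKO. Cdkn1c, on chromosome 7 from 143458339 to 143461050, encodes p57, an imprinted inhibitor linked to cell cycle exit of lens fiber cells. It had 32.9, 18.2 and 19.3 CPM in FNcKO at 48 h, against 80.5, 86.7 and 135 CPM in FNcKO at 0 h. For WT the levels were 9.70, 32.2 and 15.9 CPM at 48 h, against 129, 86.4 and 80.3 CPM at 0 h. No 48 h library reached the lowest 0 h library of either genotype. Cdkn1c fell 4.29-fold in FNcKO (log2 value −2.10, SE 0.41, edgeR BH-adjusted p = 0.00342), and in WT 5.11-fold (log2 value −2.35, SE 0.41, edgeR BH-adjusted p = 0.00137). Exons of Cdkn1c share 625 bases with an antisense gene, with the same limit. Without WT 48 h replicate 2 the WT log2 value was −2.94. With fiber cell content as a covariate it was −1.64 in WT, still called (edgeR, BH-adjusted p = 0.0187), and −1.23 in FNcKO, not called (0.153).

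Cdkn1b, on chromosome 6 from 134920401 to 134925525, encodes p27, an inhibitor typical of resting cells. FNcKO libraries held 42.5, 40.2 and 32.8 CPM at 48 h, against 62.1, 81.4 and 62.2 CPM at 0 h. WT libraries held 35.3, 40.2 and 42.9 CPM at 48 h, against 54.4, 48.5 and 47.1 CPM at 0 h. The times were apart in both genotypes. Cdkn1b fell 1.78-fold in FNcKO (log2 value −0.83, SE 0.16, edgeR BH-adjusted p = 0.00279), while the WT value was −0.34 (SE 0.16, edgeR BH-adjusted p = 0.125). The difference of these responses, FNcKO minus WT, was −0.49 and did not pass (SE 0.23, edgeR BH-adjusted p = 0.945, unadjusted p = 0.0521). The FNcKO call was lost with fiber cell content as a covariate (log2 −0.59, edgeR BH-adjusted p = 0.141).

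The makeup of the Cip/Kip family differed between the times in both genotypes, with more Cdkn1a and less Cdkn1c at 48 h. The summed level in TMM-scaled RPKM was 55.3 ± 8.32 in FNcKO 48 h (SD, n = 3), against 82.2 ± 14.2 in FNcKO 0 h. In WT it was 50.3 ± 4.76 at 48 h, against 72.4 ± 15.1 at 0 h. Cdkn1a supplied 24.5%, 55.0% and 61.9% of the sum in FNcKO 48 h libraries, against 1.93%, 2.96% and 1.46% in FNcKO 0 h libraries. In WT its share was 57.6%, 40.0% and 46.9% at 48 h, against 0.827%, 1.91% and 1.06% at 0 h. Cdkn1c supplied 23.1% ± 12.02 in FNcKO 48 h, against 62.5% ± 8.52 in FNcKO 0 h, and 19.1% ± 9.78 in WT 48 h, against 69.5% ± 3.82 in WT 0 h. The share of Cdkn1b was 29.8% ± 8.30 in FNcKO 48 h, 35.4% ± 7.83 in FNcKO 0 h, 32.7% ± 3.30 in WT 48 h and 29.2% ± 3.49 in WT 0 h. These shares were computed per library and carry no test of their own.

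Of the INK4 genes, Cdkn2b rose and Cdkn2c did not pass over time. Cdkn2b, on chromosome 4 from 89306289 to 89311032, encodes p15, an inhibitor that TGF-beta is known to induce in epithelial cells. Its levels were 12.4, 21.5 and 9.61 CPM in FNcKO 48 h libraries, against 5.36, 4.84 and 5.45 CPM in FNcKO 0 h libraries. WT gave 10.5, 13.99 and 17.4 CPM at 48 h, against 3.71, 2.14 and 2.29 CPM at 0 h. All 48 h libraries exceeded all 0 h libraries. Cdkn2b rose 2.77-fold in FNcKO (log2 value 1.47, SE 0.34, edgeR BH-adjusted p = 0.00696), and in WT 5.11-fold (log2 value 2.35, SE 0.35, edgeR BH-adjusted p = 0.000395), and both calls held in all 20 alternatives.

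Cdkn2c, on chromosome 4 from 109660876 to 109665372, encodes p18. It had 19.2, 24.0 and 25.0 CPM in FNcKO at 48 h, against 21.9, 15.3 and 21.4 CPM in FNcKO at 0 h. In WT it had 17.4, 12.6 and 18.1 CPM at 48 h, against 13.7, 10.7 and 11.9 CPM at 0 h. The times overlapped in both genotypes, with a log2 fold change of 0.22 in FNcKO (SE 0.22, edgeR BH-adjusted p = 0.501) and 0.41 in WT (SE 0.22, edgeR BH-adjusted p = 0.175). The WT value passed with total counts as the scale (0.62, edgeR BH-adjusted p = 0.0431). Of the summed INK4 level in TMM-scaled RPKM, Cdkn2b held 32.9% ± 9.13 in FNcKO 48 h (SD, n = 3), against 17.7% ± 2.03 in FNcKO 0 h, and 40.8% ± 7.55 in WT 48 h, against 14.9% ± 2.43 in WT 0 h. Cdkn2c was thus the larger part of that sum on average in all 4 groups.

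Ranked by mean TMM-scaled RPKM, FNcKO 48 h ran Ccnd1, Cdk4, Ccnd2, Ccnd3, Cdkn1a, Cdkn2c, Cdkn1b, Cdkn1c, Cdkn2b and Cdk6, and the library ranges of all neighbours in this order overlapped. FNcKO 0 h ran Ccnd1, Ccnd2, Cdk4, Cdkn1c, Ccnd3, Cdkn1b, Cdkn2c, Cdkn2b, Cdk6 and Cdkn1a, with gaps between Ccnd3 and Cdkn1b, Cdkn1b and Cdkn2c, and Cdkn2c and Cdkn2b. WT 48 h ran Cdk4, Ccnd1, Ccnd2, Ccnd3, Cdkn1a, Cdkn1b, Cdkn2c, Cdkn2b, Cdkn1c and Cdk6, with gaps between Ccnd1 and Ccnd2, Ccnd3 and Cdkn1a, and Cdkn1a and Cdkn1b. WT 0 h ran Ccnd2, Ccnd1, Cdkn1c, Cdk4, Ccnd3, Cdkn1b, Cdkn2c, Cdk6, Cdkn2b and Cdkn1a, and the gaps lay between Ccnd1 and Cdkn1c, Ccnd3 and Cdkn1b, Cdkn1b and Cdkn2c, Cdkn2c and Cdk6, and Cdkn2b and Cdkn1a. Cdkn1a was last of the 10 at 0 h and in the middle at 48 h in both genotypes. Mean levels spanned 156.6 for Ccnd1 to 9.02 for Cdk6 in FNcKO 48 h and 90.2 for Ccnd2 to 0.884 for Cdkn1a in WT 0 h.

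**Figure D3:**
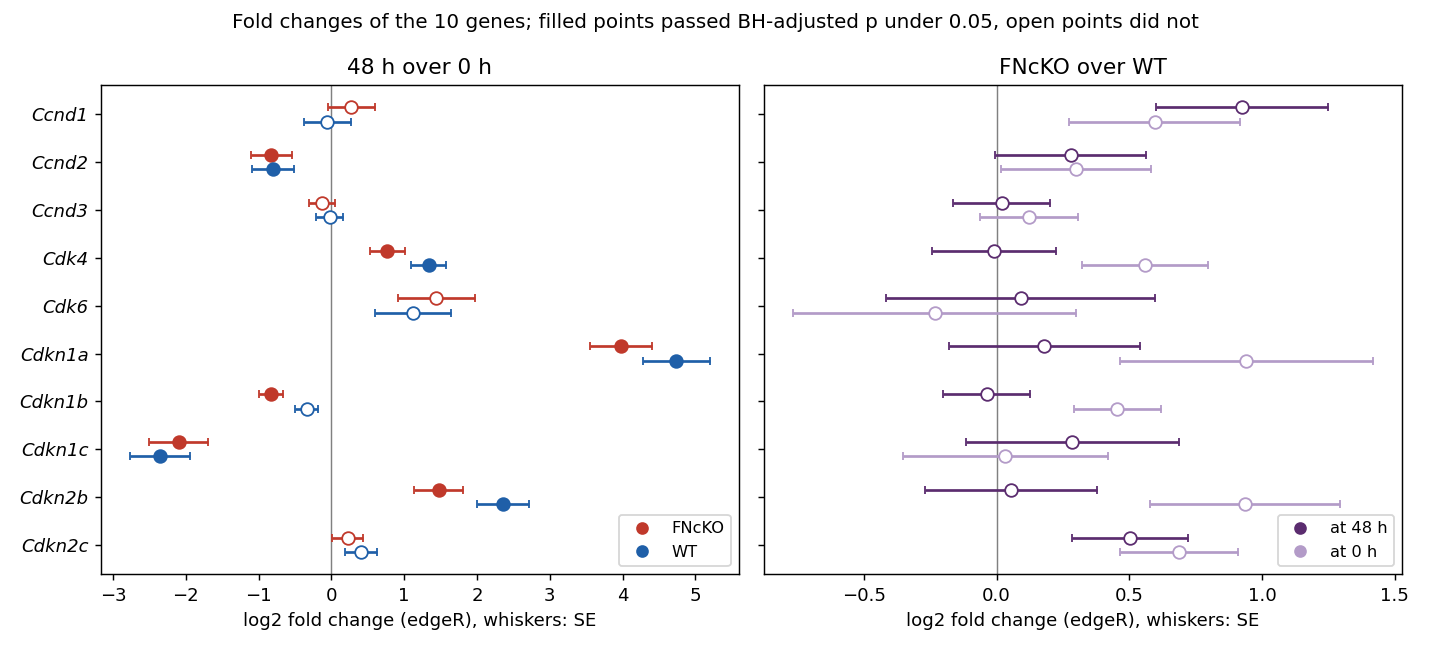
Log2 fold changes of the 10 genes from edgeR with SE whiskers, 48 h over 0 h in FNcKO and WT (left) and FNcKO over WT at 48 h and 0 h (right), with points filled where the BH-adjusted p was under 0.05. Cdkn1a lies farthest to the right on the left panel, at 3.98 in FNcKO and 4.74 in WT, and no point on the right panel is filled.

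Comparing FNcKO with WT asked whether levels of these genes differ between the groups of mice, whose strain backgrounds differ as well. It cannot tie a difference to fibronectin alone. Fn1 RNA itself was called at neither time by edgeR, and its FNcKO and WT libraries overlapped at both. Its log2 difference was −1.42 with 48 h libraries (BH-adjusted p = 0.713), and −0.72 with 0 h libraries (0.609). At 48 h none of the 10 was called, while 35 of all tested genes were. At an unadjusted p under 0.05, 2 of the 10 were higher in FNcKO, beside 2.07% of tested genes. Ccnd1 was 1.90-fold higher on average (log2 value 0.92, SE 0.32, unadjusted p = 0.0132 and BH-adjusted p = 0.636 in edgeR), yet FNcKO replicate 1 at 306 CPM lay below WT replicate 3 at 432 CPM. Cdkn2c was 1.42-fold higher (log2 value 0.50, SE 0.22, unadjusted p = 0.0377 and BH-adjusted p = 0.865 in edgeR), with 19.2 to 25.0 CPM in FNcKO and 12.6 to 18.1 CPM in WT. In TMM-scaled CPM it was the 1 gene of the 10 whose FNcKO libraries all exceeded the WT libraries at 48 h, beside 4.48% of tested genes. FNcKO 48 h replicate 1 had 182 Cdkn2c counts in a total of 9177219, and WT 48 h replicate 1 had 183 in 9028674. On total counts these libraries thus overlapped. For the other 8 genes the log2 difference lay between −0.04 for Cdkn1b and 0.29 for Cdkn1c.

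At 0 h, 6 of the 10 genes were higher in TMM-scaled CPM in every FNcKO library than in every WT library, beside 8.68% of tested genes. These were Ccnd1, Cdk4, Cdkn1a, Cdkn1b, Cdkn2b and Cdkn2c. None was called, and 4 had an unadjusted p under 0.05, beside 5.98% of tested genes in the same direction. They were Cdkn2c (log2 value 0.69, SE 0.22, edgeR BH-adjusted p = 0.343), Cdkn1b (0.46, SE 0.16, 0.382), Cdkn2b (0.94, SE 0.36, 0.402) and Cdk4 (0.56, SE 0.24, 0.42). Ccnd1 differed by 0.60 (SE 0.32, edgeR BH-adjusted p = 0.4997) and Cdkn1a by 0.94 (SE 0.48, 0.489). The median of the 10 genes was 0.51, beside 0.01 for all tested genes. With total counts as the scale the median of all tested genes was −0.14. The lowest TMM factor (0.754), which raises scaled CPM, was that of FNcKO 0 h replicate 3. That library had 2813 counts of Ccnd1, 20 of Cdkn1a and 434 of Cdkn1b in a total of 9251635. WT 0 h replicate 2 had 3719, 25 and 476 in a total of 9400512. On total counts Ccnd1, Cdkn1a and Cdkn1b thus overlapped between genotypes. In TMM-scaled CPM, Cdkn2c was higher in FNcKO without overlap at both times, as were 0.838% of tested genes. On total counts its 48 h libraries overlapped. The 0 h comparison shares its libraries with both comparisons over time. It includes WT 0 h replicate 1, whose column in the authors' combined table holds the counts of FNcKO 0 h replicate 1. Without both of these libraries none of the 10 was called, and the overlap of libraries was not examined.

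The difference of the 48 h responses, FNcKO minus WT, was called for none of the 10 and for 0% of tested genes. It had an unadjusted p under 0.05 for none of the 10 in edgeR, beside 735 of the 14560 genes (5.05%), and DESeq2 called 28 genes, none of them among the 10. The largest differences were −0.88 for Cdkn2b (SE 0.48), −0.76 for Cdkn1a (SE 0.60), −0.57 for Cdk4 (SE 0.33) and −0.49 for Cdkn1b, each with an edgeR BH-adjusted p of 0.945. For Ccnd2 it was −0.02 (SE 0.40). A difference that misses the threshold with 3 libraries a group does not show that the genotypes respond alike.

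Of 26 other genes of G1 and S phase entry, 14 rose and 1 fell in FNcKO, and 14 rose and 2 fell in WT, with a median log2 fold change of 1.10 and 1.08. Ccne1, which encodes cyclin E1, rose 6.87-fold to 19.5 ± 8.90 CPM in FNcKO 48 h, against 2.86 ± 1.35 CPM in FNcKO 0 h (log2 value 2.78, SE 0.46, edgeR BH-adjusted p = 0.000974). In WT it rose 7.55-fold to 14.2 ± 5.65 CPM at 48 h, against 1.88 ± 0.542 CPM at 0 h (log2 value 2.92, SE 0.47, edgeR BH-adjusted p = 0.00059). Cdk2, the kinase of cyclins E and A, rose 2.25-fold in FNcKO and 2.30-fold in WT. Ccna2, which encodes cyclin A2, reached 100.5 ± 40.9 CPM in FNcKO 48 h and 88.1 ± 47.2 CPM in WT 48 h, and rose 9.03-fold and 7.76-fold. E2f7 and E2f8, repressor E2F genes that cycling cells switch on, rose by 3.99 and 3.24 on the log2 scale in FNcKO and by 3.96 and 3.76 in WT.

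Not every gene of the list moved. Rb1, which encodes the retinoblastoma protein, had a log2 fold change of 0.41 in FNcKO (edgeR, BH-adjusted p = 0.102) and 0.15 in WT (0.523). Its relative Rbl2, which encodes p130 of resting cells and is named here after its values were seen, fell by 0.74 in FNcKO and by 0.69 in WT. Ccne2, the second cyclin E gene, rose 4.79-fold in FNcKO (edgeR, BH-adjusted p = 0.00659) and had a log2 value of 1.38 in WT (edgeR, BH-adjusted p = 0.0502). Among the remaining INK4 genes, Cdkn2d rose 2.20-fold in WT (edgeR, BH-adjusted p = 0.0396) and had a log2 value of 0.85 in FNcKO (0.125). Cdkn2a, the INK4 and Arf gene next to Cdkn2b, was near the detection limit, with 12, 20 and 37 counts in FNcKO 48 h, 7, 0 and 1 counts in FNcKO 0 h, 12, 4 and 19 counts in WT 48 h, and 0, 4 and 3 counts in WT 0 h libraries. It did not pass in FNcKO (edgeR, BH-adjusted p = 0.0516) or WT (0.132). Cdkn3, a phosphatase of CDKs, passed in both genotypes, with 25, 99 and 79 counts in FNcKO 48 h, 8, 4 and 3 counts in FNcKO 0 h, 83, 21 and 61 counts in WT 48 h and 2, 0 and 0 counts in WT 0 h libraries.

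All 10 proliferation markers rose in both genotypes, with a median log2 fold change of 3.23 in FNcKO and 3.44 in WT. Rrm2, a subunit of ribonucleotide reductase, rose 10.3-fold in FNcKO and 14.6-fold in WT. The summed markers stood at 869, 1683 and 1740.0 CPM in FNcKO 48 h libraries, against 211, 172 and 205 CPM in FNcKO 0 h libraries. In WT the sum was 1401, 475 and 1365 CPM at 48 h, against 153, 83.5 and 169 CPM at 0 h. FNcKO 48 h replicate 1 and WT 48 h replicate 2 were the lowest 48 h libraries of their groups. Those libraries also had the lowest Cdk4, Cdk6 and Cdkn1a and the highest Cdkn1c of their groups at 48 h. For Cdkn1a in WT the gap was small, with 45.1 CPM in replicate 2 and 46.5 CPM in replicate 3.

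Of 15 p53 target genes other than Cdkn1a, 5 rose and 2 fell in FNcKO, and 9 rose and 1 fell in WT. Their median log2 fold change was 0.32 in FNcKO and 0.60 in WT. Of all tested genes, 14.9% rose and 9.9% fell in FNcKO, and 19.1% rose and 13.5% fell in WT. The list summed to 533 ± 58.1 CPM in FNcKO 48 h (SD, n = 3) and 564 ± 73.0 CPM in FNcKO 0 h. In WT it summed to 556 ± 50.6 CPM at 48 h, against 455 ± 43.3 CPM at 0 h. Eda2r, a death receptor gene of that list, rose 21.2-fold in FNcKO and 32.2-fold in WT. It had 2, 10 and 10 counts in FNcKO 0 h and 3, 5 and 4 counts in WT 0 h libraries. These low counts limit the precision of its fold changes. Trp53inp1, named after its values were seen, fell by 1.24 in FNcKO and 1.38 in WT on the log2 scale. Of 9 TGF-beta response genes, 8 rose in FNcKO and 7 in WT, with 0 lower and a median of 1.14 and 1.65. Tgfbi, an extracellular matrix gene of that list, rose by 5.14 on the log2 scale in FNcKO and by 5.39 in WT.

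RNA of other cells moved with the same comparison. Lens fiber cell markers, of which 4 of 12 fell in FNcKO and 5 of 12 in WT and 0 rose, summed to 19722, 7762 and 1002 CPM in FNcKO 48 h libraries, against 28572, 37379 and 75558 CPM in FNcKO 0 h libraries. In WT they summed to 1664, 7899 and 7269 CPM at 48 h, against 42702, 20629 and 30952 CPM at 0 h. FNcKO 48 h replicate 1 and WT 48 h replicate 2 had the highest fiber sums of their groups, in WT with replicate 3 close behind. None of the 12 genes was at 0 throughout a group. Of 11 leukocyte markers tested, 9 rose in each genotype. Over the 13 markers in the files the leukocyte sum was 195 to 482 CPM in FNcKO 48 h, 37.6 to 69.2 CPM in FNcKO 0 h, 289 to 922 CPM in WT 48 h and 47.4 to 106 CPM in WT 0 h, with Cd3e at 0 counts in all 6 libraries of 0 h and S100a9 at 0 in all 3 of FNcKO 0 h. Epithelial markers fell, 5 of 8 in FNcKO and 4 of 8 in WT, and 3 of 5 vascular endothelial markers rose in each genotype. Over time, 1 of 6 pigment cell markers fell in FNcKO, beside 9.9% of tested genes, and 2 of 6 rose in WT, beside 19.1%. At 48 h, 3 of 6 were lower in FNcKO than in WT, beside 0.24% of tested genes called in either direction. Of 5 photoreceptor markers 0 passed over time in edgeR, also at an unadjusted p under 0.05. The part of these cells in the changes of the 10 genes was not tested. Time and fiber content move together, so a fit with fiber cell content as a covariate cannot separate them. In that fit 2 of the 10 genes were called in FNcKO and 4 in WT. Of all tested genes, 824 instead of 3611 were called in FNcKO and 1666 instead of 4745 in WT. Cdkn1a and Cdkn2b were called in both genotypes in that fit, and Cdk4 and Cdkn1c in WT.

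**Figure D4:**
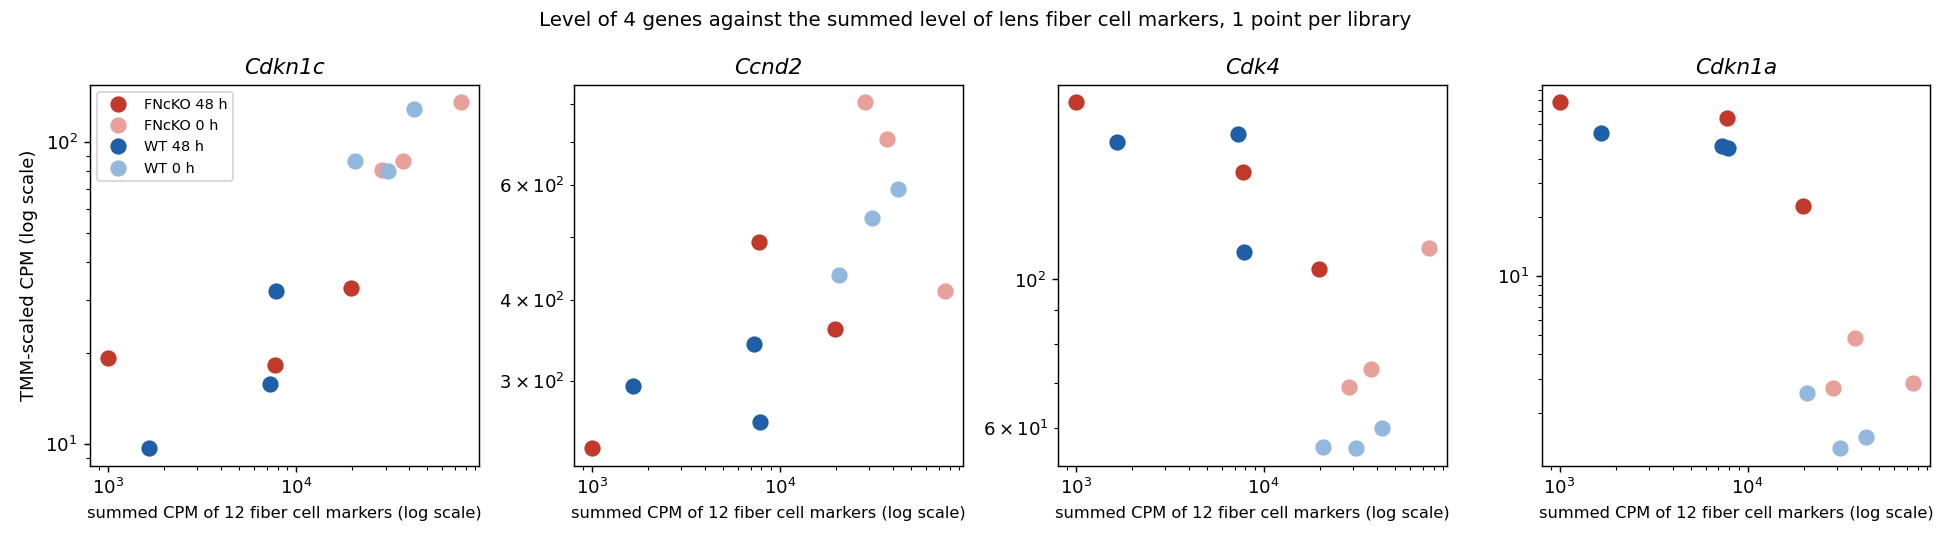
TMM-scaled CPM of Cdkn1c, Ccnd2, Cdk4 and Cdkn1a (vertical log axes) against the summed CPM of 12 lens fiber cell markers (horizontal log axis), with 1 point per library. Libraries of 48 h lie to the left, at 1002 to 19722 CPM of fiber markers, and libraries of 0 h to the right, at 20629 to 75558 CPM, so time and fiber content move together.

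Across the 12 libraries, which fall into 0 h and 48 h groups and share their scaling, the genes whose log2 levels were most like those of each member are given with Pearson's r as a description. They were Cyth3 (0.87) and Foxd2os (0.85) for Ccnd1, Wdr26 and Prkci (both 0.96) for Ccnd2, Fam221a (0.87) for Ccnd3, Bak1 (0.99) and Nop2 (0.98) for Cdk4, and Rgs12 and Blm (both 0.96) for Cdk6. For the inhibitors they were Dusp6 and Igfbp3 (both 0.99) for Cdkn1a, Dynlt3 and Pde4d (both 0.94) for Cdkn1b, Pygm and Mapk8ip1 (both 0.98) for Cdkn1c, Capn2 and Ak1 (both 0.96) for Cdkn2b, and Cndp2 (0.93) and Arhgap22 (0.91) for Cdkn2c. The likeness was lowest for Ccnd1 and Ccnd3.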

How the data were processed

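RNA from 12 libraries of lens capsule was sequenced on an Illumina instrument from a stranded TruSeq library, per the labels' protocols. The deposited per-library files hold raw read counts per gene, and the authors' RPKM values beside them; the RPKM values were used only to check the files' lengths and equal RPKM recomputed from the counts, the coding length and each file's total count to a relative difference of at most 1.38e-14. The submitters' processing notes name, with no roles, HTSeq 0.6.1p1, TopHat2 2.1.0, Trim Galore 0.4.4, SAMtools 1.4, bedtools 2.17, FastQC, edgeR 3.16.5 and mm10. The sources used here give neither the annotation nor the strand setting. Of the 24147 entries, 163 carry a symbol that occurs more than once, and none of these is a member.

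Counts were tested with edgeR 4.0.16 in R 4.3.3 (quasi-likelihood F test, robust, TMM factors from 0.754 to 1.16, filterByExpr, 14560 genes, 4 group means over 12 libraries, BH adjustment). SE is the absolute log2 fold change over the square root of F, an approximation. DESeq2 1.42.0 and other settings were alternatives. The fits of the 4 comparisons between a pair of groups were tested on simulated data, and the difference of responses was not. The members, the gene lists and the named-gene rule were chosen with earlier results of these data known. By that rule, all members are named, with Cdkn2a, Cdkn2d, Ccne1, Ccne2, Cdk2 and Rb1, up to 4 G1 and S entry genes and up to 2 genes of each other list with the largest called change without overlap, and the 2 genes most like each member by Pearson's r of log2(TMM CPM + 1). Some genes that the rule names are not reported here. Promoter windows and gene starts come from RefSeq (GRCm38.p6), and opposite-strand overlaps from GENCODE M21. Nothing in the labels says that libraries came from separate animals beyond the word triplicate, so p-values measure only the spread between these samples.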

Additional observations from a re-analysis of the deposited data

How the results depend on the processing

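Among 50 fold changes of the 10 genes, 11 were called, and none of these 11 changed sign in any alternative. With fiber cell content as a covariate, 2 instead of 6 of the 10 genes were called in FNcKO over time, and over all genes 824 instead of 3611 in FNcKO, 1666 instead of 4745 in WT, 33 instead of 21 between genotypes at 0 h, and 4 instead of 0 for the difference of responses; the cause was not tested. Without both 0 h replicate 1 libraries, 2299 genes were called in FNcKO over time, 14 instead of 35 between genotypes at 48 h and 2 at 0 h. DESeq2 called 119 genes at 48 h, 129 at 0 h and 28 for the difference. Fitting only the groups compared called 7 at 48 h, and total counts as the scale called 10 at 0 h. Leaving out 1 library at a time gave 2232 to 4095 genes in FNcKO over time, 10 to 46 between genotypes at 48 h, 2 to 28 at 0 h and 0 to 1 for the difference.

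Total counts as the scale moved the median log2 fold change of all genes to 0.29 in FNcKO and 0.23 in WT over time, and to −0.07 at 48 h and −0.14 at 0 h between genotypes. The calls then split into 3408 higher and 727 lower in FNcKO and 3889 higher and 1212 lower in WT, and for the 10 genes into 4 and 2 in FNcKO and 4 and 1 in WT.

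Only values that were not called changed sign. With total counts as the scale these were, over time, Ccnd3 in FNcKO (0.18), and Ccnd1 (0.14) and Ccnd3 (0.20) in WT, and between genotypes Ccnd3 (−0.061) and Cdkn2b (−0.041) at 48 h and Ccnd3 (−0.046) and Cdkn1c (−0.15) at 0 h. With the fiber covariate they were Ccnd1 in FNcKO over time (−0.35) and Cdkn1c between genotypes at 0 h (−0.13). Without both 0 h replicate 1 libraries they were Ccnd3 in WT over time (0.10) and the differences for Ccnd2 (0.073) and Cdkn1c (−0.13). Leaving out 1 library gave ranges that cross 0 over time for Ccnd1 in FNcKO (−0.017 to 0.59), Ccnd1 in WT (−0.35 to 0.10) and Ccnd3 in WT (−0.13 to 0.10). Between genotypes at 48 h these were Ccnd2 (−0.0015 to 0.51), Ccnd3 (−0.084 to 0.12), Cdk4 (−0.22 to 0.18), Cdk6 (−0.34 to 0.39), Cdkn1a (−0.15 to 0.55), Cdkn1b (−0.12 to 0.067), Cdkn1c (−0.039 to 0.88) and Cdkn2b (−0.34 to 0.28). At 0 h they were Ccnd3 (−0.0099 to 0.27), Cdk6 (−0.48 to 0.11) and Cdkn1c (−0.22 to 0.28), and for the difference Ccnd2 (−0.30 to 0.21), Ccnd3 (−0.25 to 0.018), Cdk6 (−0.11 to 0.62) and Cdkn1c (−0.074 to 0.85).

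Libraries of the same replicate number did not all deviate together (r from −0.50 to 0.32). Deviations from a group mean are tied to each other, so these values cannot decide whether the numbers pair libraries. With a replicate block, 5 of the 10 genes were called in FNcKO and 4 in WT over time and 0 between genotypes, and over all genes 3048, 4184, 31 at 48 h, 14 at 0 h and 1 for the difference. At 0 h Cdkn1a had 20 to 42 counts in FNcKO and 11 to 25 counts in WT libraries, which limits the precision of its fold change.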
